A study of Homo sapiens with 4 samples.

Results

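The UGT1A locus on chromosome 2 encodes a family of UDP-glucuronosyltransferases, enzymes of the endoplasmic reticulum that attach glucuronic acid to bilirubin, phenols, hormones and many drugs so that they can be excreted. A row of alternative first exons, each with a promoter of its own, is spliced to the same set of downstream exons. The first exon encodes the part of the enzyme that binds the substrate, and the shared exons encode the part that binds the sugar donor, UDP-glucuronic acid. The genes described here were all those of the deposited table whose name was UGT1A followed by a number. There were 5 of them (UGT1A1, UGT1A4, UGT1A6, UGT1A7 and UGT1A9) among 16371 listed genes, with 8 of the 56389 listed transcripts. The rule used gene names alone, although the locus was picked with earlier results of these data known.

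RNA was sequenced from clusters of A549, an established human lung adenocarcinoma cell line. The titles of all 4 libraries carry the tag SUS. One group carried a knockdown construct against the dual-specificity phosphatase gene DUSP23 (shDUSP23) and the other a control construct (shMock, whose genotype is labelled wild type). Each group had 2 libraries, and age, treatment or other alleles were not part of the labels. The labels did not say whether the libraries of a group came from separate cultures, so p-values reflect the spread among 4 libraries and may be technical in part. The labels give neither the hairpins used nor whether the cells were 1 clone.

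The 4 libraries differed in depth and in composition. The steps between low values of genes with 1 transcript gave about 26970000 and 42300000 fragments in shDUSP23 and about 21282000 and 25284000 in shMock. DUSP23 itself had 1.71 and 2.71 FPKM (fragments per kilobase of transcript, scaled to library size) in shDUSP23, against 29.96 and 35.9 FPKM in shMock, so the targeted gene was low in both knockdown libraries (log2 fold change -3.64; limma, adjusted p = 3.12e-05). Log2 values of the tested genes correlated with a Pearson r of 0.97 within shDUSP23, 0.99 within shMock and 0.88 to 0.91 across the groups. Of 5 epithelial markers all were above a mean of 1 FPKM, with a summed level of 1634 and 1716 FPKM in shDUSP23 and 2154 and 2111 FPKM in shMock, nearly all of it KRT8 and KRT18. CDH1, the epithelial cadherin gene, had 6.20 and 8.14 FPKM in shDUSP23 and 22.4 and 21.5 FPKM in shMock, and EPCAM had 3.467 and 3.999 FPKM in shDUSP23 and 5.83 and 7.05 FPKM in shMock. KRT19 overlapped between the groups. Of 5 alveolar markers only NAPSA had a row, at 3.22 and 2.42 FPKM in shDUSP23 and 1.96 and 2.14 FPKM in shMock. Of 5 leukocyte markers only CD14 had a row, at 0.983 and 0.995 FPKM in shDUSP23 and 4.68 and 8.01 FPKM in shMock. Of 5 fibroblast markers 3 had a row. They summed to 4.57 and 4.90 FPKM in shDUSP23 and 3.18 and 2.60 FPKM in shMock, most of it the collagen gene COL1A1. Of 5 endothelial markers 0 had a row. CPS1, the hepatocyte marker of 5 that had a row, was at 22.6 and 25.7 FPKM in shDUSP23 and 93.7 and 109 FPKM in shMock. CDH1, EPCAM, KRT8, KRT18, CD14 and CPS1 were all lower in shDUSP23 without overlap, as were 36.2% of all tested genes. NAPSA, COL1A1 and PDGFRB were higher in shDUSP23 without overlap, with PDGFRB at 0.273 FPKM or less. The part of these markers in the results below was not tested.

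The UGT1A transcripts differ at their 5′ ends, and all but UGT1A6-207 continue into the same exon 2. The transcripts below show this in the 30 bases on each side of the joint between the first exon and exon 2, written 5′ to 3′ from the plus strand of GRCh38 (GENCODE release 29). Capitals mark the end of the first exon and lower case the start of shared exon 2, which begins at position 233767034 of chromosome 2.
UGT1A9-201: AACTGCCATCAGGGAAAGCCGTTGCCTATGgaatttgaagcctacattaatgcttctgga
UGT1A7-201: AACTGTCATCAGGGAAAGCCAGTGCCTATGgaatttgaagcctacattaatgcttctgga
UGT1A6-201: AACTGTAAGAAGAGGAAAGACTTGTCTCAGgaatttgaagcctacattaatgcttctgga
UGT1A4-202: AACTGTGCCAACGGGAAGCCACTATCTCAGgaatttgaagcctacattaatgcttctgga
UGT1A1-201: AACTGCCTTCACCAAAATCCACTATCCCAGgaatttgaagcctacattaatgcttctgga

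The first-exon ends of UGT1A9 and UGT1A7 differed from each other at 3 of these 30 bases, whereas every other pair differed at 10 to 16. Over the whole first exon UGT1A7 and UGT1A9 were 84.2% identical, against 51.9% for UGT1A6 and UGT1A7. UGT1A9 and the first exon of UGT1A8, a gene not analysed here, were 91.0% identical. The first exon made up 36.6% of UGT1A7-201, 38.8% of UGT1A9-201 and 40.3% of UGT1A6-201 in bases. Of all stretches of 100 bases in UGT1A7-201, 37.9% occurred in no other listed UGT1A transcript. This share was 40.1% for UGT1A9-201, 34.7% for UGT1A6-201, 58.2% for UGT1A1-202 and 45.9% for UGT1A4-202. Set against all UGT1A transcripts annotated in GENCODE 29, listed here or not, the share was 23.3% for UGT1A7-201, 38.4% for UGT1A9-201, 13.8% for UGT1A6-201, 40.6% for UGT1A1-202 and 0.815% for UGT1A4-202. In both counts it was 1.75% for UGT1A1-201 and 0% for UGT1A6-203, so their values rest on how the authors' quantification divided reads between transcripts. How that division was made is not stated in the labels or the file. Against other UGT1A genes alone, the share was 37.9% for UGT1A7-201, 38.4% for UGT1A9-201, 41.8% for UGT1A6-201 and 39.5% for UGT1A1-201. It was 66.8% for UGT1A1-202, 37.3% for UGT1A4-202 and 24.5% for UGT1A6-203.

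UGT1A7 and UGT1A9, the most abundant members in control clusters, were both lower in shDUSP23. UGT1A7 encodes an enzyme known from tissues outside the liver that conjugates phenolic carcinogen metabolites. Its only listed transcript, UGT1A7-201, runs from 233681938 to 233773299 on the plus strand (ENSG00000244122). It had 3.57 and 3.47 FPKM in shDUSP23, against 22.9 and 21.7 FPKM in shMock. Both shDUSP23 libraries lay far below both shMock libraries, and the replicates of each group were close together. By group means UGT1A7 was 6.33 times lower in shDUSP23, 3.52 ± 0.0718 against 22.3 ± 0.828 FPKM (mean ± SD with n = 2 in each group, as in all such values). In limma on log2(FPKM + 0.5), it fell by 2.50 on the log2 scale (SE 0.16; adjusted p = 3.74e-05 by Benjamini-Hochberg over the 13691 genes that averaged 1 FPKM or more). Genes with an adjusted p under 0.05 were called. Fold changes here are shDUSP23 minus shMock, and the pseudocount makes those of low genes too small. These values stood for roughly 225 and 342.5 fragments in shDUSP23 and 1136 and 1281 in shMock.

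UGT1A9, which conjugates bulky phenols including the anaesthetic propofol, is known from liver and kidney. UGT1A9-201, from 233671898 to 233773300 on the plus strand (ENSG00000241119), had 8.87 and 6.25 FPKM in shDUSP23, against 23.1 and 24.7 FPKM in shMock. The groups did not overlap, and the shDUSP23 libraries differed more from each other than the shMock libraries did. The means were 7.56 ± 1.85 FPKM in shDUSP23 and 23.9 ± 1.14 FPKM in shMock, 3.17 times lower in shDUSP23. It fell by 1.62 on the log2 scale (SE 0.19; limma, adjusted p = 0.000343). Whether fewer cells with these transcripts or less RNA per cell underlies such a difference cannot be told apart in bulk samples.

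**Figure D1:**
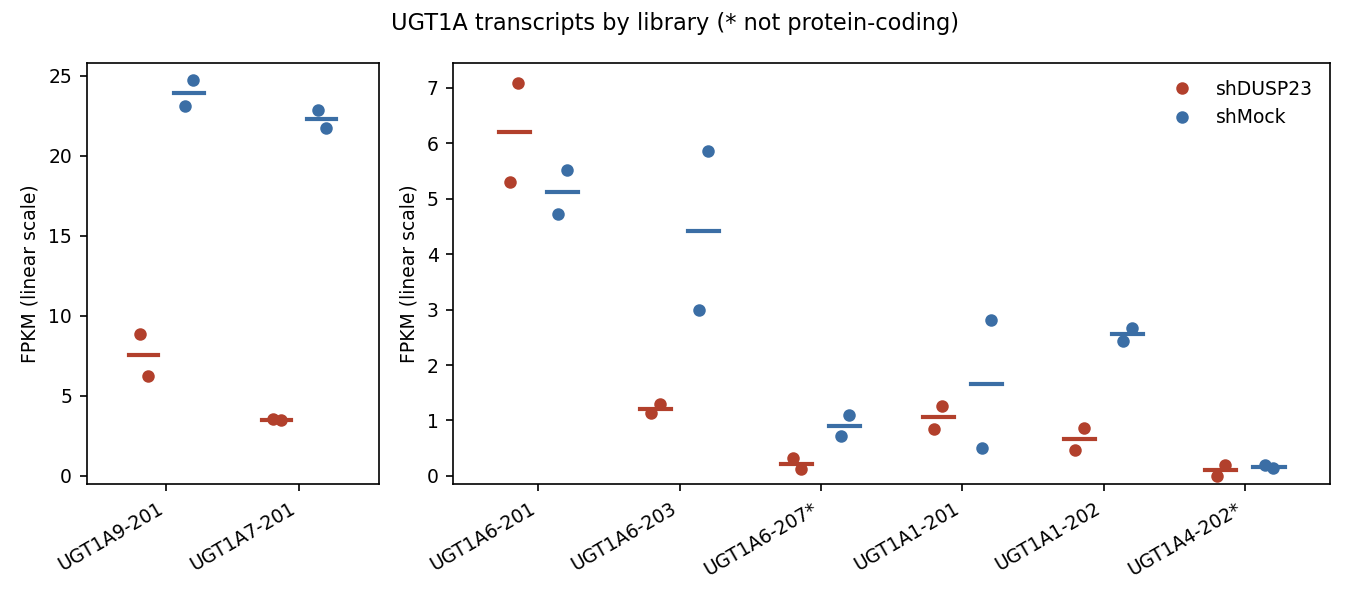
FPKM of the 8 listed UGT1A transcripts on linear axes, with 1 point per library, a bar at the group mean, shDUSP23 left and shMock right of each pair. UGT1A7-201 sits at 3.57 and 3.47 FPKM in shDUSP23 and at 22.9 and 21.7 in shMock, whereas the groups overlap for UGT1A6-201.

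UGT1A6 did not pass the test as a whole gene. Its enzyme conjugates small planar phenols and serotonin. The sum of its 3 listed transcripts (ENSG00000167165) was 6.75 and 8.51 FPKM in shDUSP23, against 8.44 and 12.5 FPKM in shMock. The higher shDUSP23 library lay just above the lower shMock library, so the groups overlapped. The log2 fold change of -0.41 had a 95% interval of -0.92 to 0.10 (SE 0.22; limma, adjusted p = 0.163).

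The transcripts of UGT1A6 had different values. UGT1A6-201, the full-length coding transcript from 233692890 to 233773300, had 5.30 and 7.09 FPKM in shDUSP23, against 4.73 and 5.52 FPKM in shMock. It was the 1 tested UGT1A transcript whose mean was higher in shDUSP23, but the groups overlapped. The transcript-level log2 fold change was 0.24 (95% interval -0.44 to 0.92; limma, adjusted p = 0.589 over 37453 transcripts). UGT1A6-203, a shorter coding transcript that ends on a nearer last exon, had 1.13 and 1.30 FPKM in shDUSP23 and 2.99 and 5.85 FPKM in shMock. Its groups did not overlap, but its log2 fold change of -1.46 did not pass the transcript-level test (limma, adjusted p = 0.132). The noncoding UGT1A6-207, which starts upstream at 233691702 and does not reach shared exon 2, had 0.321 and 0.128 FPKM in shDUSP23 and 0.712 and 1.09 FPKM in shMock. It was below the mean of 1 FPKM required for a test.

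UGT1A1, the enzyme that conjugates bilirubin and clears the active metabolite of irinotecan, was low in all libraries. Its 2 listed transcripts (ENSG00000241635) summed to 1.32 and 2.13 FPKM in shDUSP23, against 2.94 and 5.48 FPKM in shMock. The groups did not overlap, and the shMock libraries were far apart. UGT1A1 fell by 1.05 on the log2 scale (SE 0.34; limma, adjusted p = 0.0332). The call was lost without shMock replicate 2 (log2 fold change -0.65, limma adjusted p = 0.312), without shDUSP23 replicate 1 (-0.79, adjusted p = 0.0636) and after FPKM sums were made equal across libraries (-0.77, adjusted p = 0.0699).

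The transcripts of UGT1A1 had different values. UGT1A1-201, from 233760270 to 233773300, had 0.847 and 1.26 FPKM in shDUSP23, and 0.498 and 2.82 FPKM in shMock, so the shMock values enclosed the shDUSP23 ones. UGT1A1-202, which ends on the nearer last exon, had 0.470 and 0.866 FPKM in shDUSP23, against 2.44 and 2.67 FPKM in shMock. Its groups did not overlap, but its log2 fold change of -1.41 did not pass the transcript-level test (limma, adjusted p = 0.151). UGT1A4, whose enzyme conjugates amines, was represented by a nonsense-mediated decay transcript alone, UGT1A4-202. That transcript was listed at 0 and 0.206 FPKM in shDUSP23 and at 0.194 and 0.145 FPKM in shMock. The nonzero values stood for about 19, 9 and 8 fragments, and the gene was not tested.

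Of the 4 UGT1A genes tested, 3 were called lower in shDUSP23 and 0 higher. Among all tested genes 45.3% were called, 22.2% lower and 23.1% higher. Their groups did not overlap in these 3, and 36.2% of all tested genes had shDUSP23 libraries below both shMock libraries. Leaving out any library kept the calls of UGT1A7 and UGT1A9. At transcript level 2 of 6 tested UGT1A transcripts, UGT1A7-201 and UGT1A9-201, were called lower (limma, adjusted p = 0.0285 and 0.042), and 0 higher. Among all tested transcripts 4.15% were called, 2.45% lower and 1.7% higher. These transcript calls were lost whenever a library was left out, when 0 transcripts of the whole table passed.

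**Figure D2:**
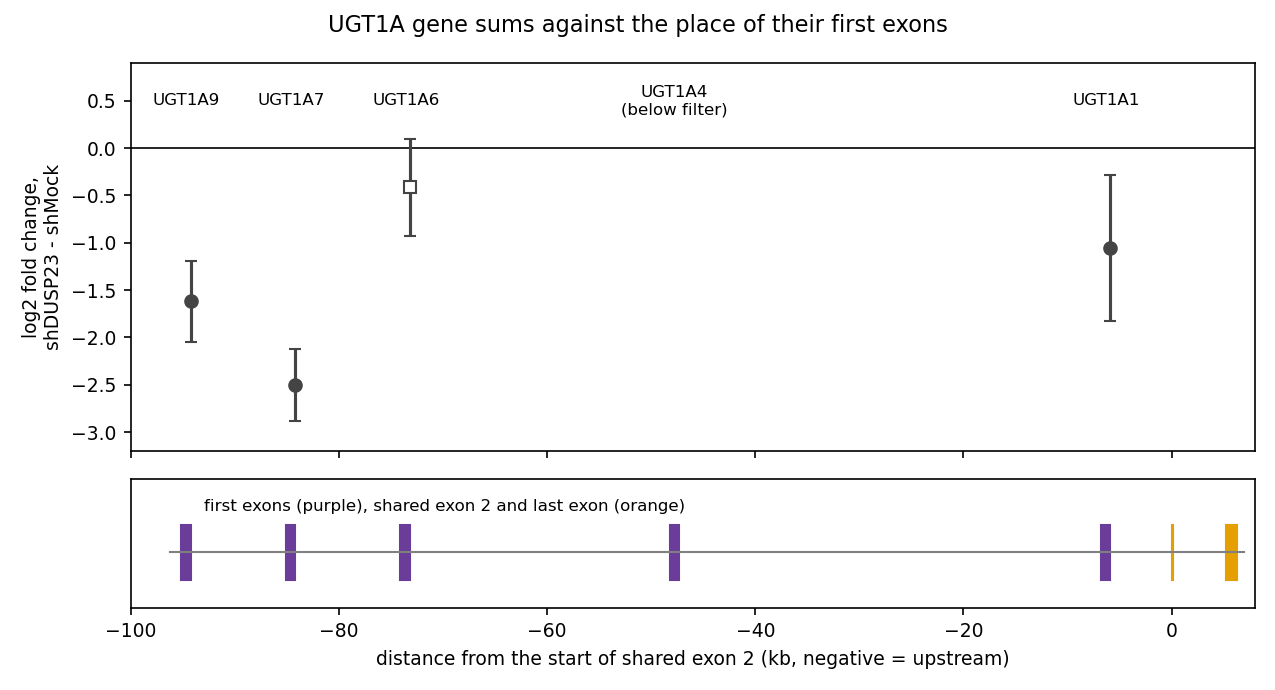
Log2 fold change of each tested UGT1A gene sum with its 95% interval (limma; filled, adjusted p under 0.05), placed by the distance in kb of its first exon from shared exon 2, above a map of these first exons, shared exon 2 and the far last exon. UGT1A7 lies lowest at -2.50, and UGT1A6, between UGT1A7 and UGT1A1 on the chromosome, lies at -0.41.

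The position of a first exon did not order the fold changes. Counted from the end of the first exon to shared exon 2, UGT1A9 is 94.2 kb away, UGT1A7 84.2 kb, UGT1A6-201 73.2 kb and UGT1A1 5.88 kb. The log2 fold changes in that order were -1.62, -2.50, -0.41 and -1.05.

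The sum over all 8 transcripts, in which reads assigned to the wrong transcript of like length cancel, was lower in shDUSP23. It was 20.5 and 20.6 FPKM in shDUSP23, against 57.6 and 64.6 FPKM in shMock. The shDUSP23 libraries were almost equal, and the group means differed 2.97 times. The make-up of the sum also differed between the groups. UGT1A7-201 gave 17.4% and 16.9% of it in shDUSP23, against 39.7% and 33.6% in shMock. UGT1A6-201 gave 25.8% and 34.5% in shDUSP23, against 8.21% and 8.55% in shMock. UGT1A9-201 gave 43.3% and 30.4% in shDUSP23, against 40.2% and 38.3% in shMock, with overlap. In shMock the order of levels was UGT1A9 and UGT1A7 close together, then UGT1A6 and UGT1A1. In shDUSP23 UGT1A9 and UGT1A6 overlapped at the top, followed by UGT1A7 and UGT1A1.

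**Figure D3:**
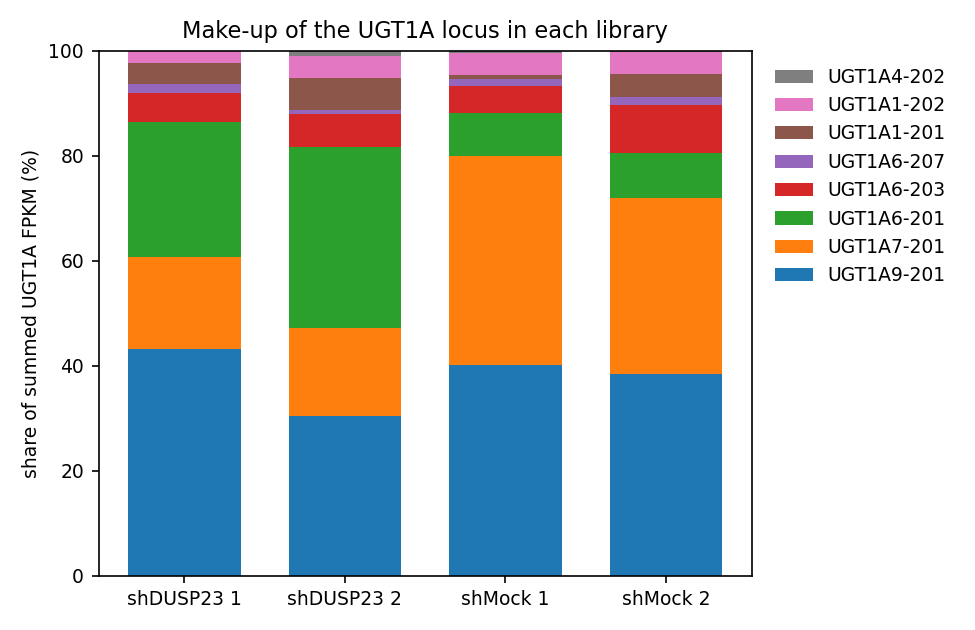
Share in percent of the summed UGT1A FPKM held by each transcript, with 1 stacked bar per library. UGT1A7-201 holds 17.4% and 16.9% in the shDUSP23 libraries against 39.7% and 33.6% in shMock, and UGT1A6-201 holds 25.8% and 34.5% against 8.21% and 8.55%.

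Ratios within a library showed the same shift. UGT1A7-201 had 0.675 and 0.490 times the FPKM of UGT1A6-201 in shDUSP23, against 4.84 and 3.94 times in shMock. UGT1A7 had 0.403 and 0.555 times the FPKM of UGT1A9 in shDUSP23, against 0.989 and 0.878 times in shMock. With 2 libraries against 2, a two-sided exact permutation test cannot give a p below 0.333, which is the value for both ratios. A test across the whole table, limma's diffSplice with the locus taken as 1 gene, compared the fold change of each transcript with that of the others of its gene. UGT1A6-201 stood 1.69 higher on the log2 scale than the other UGT1A transcripts (limma, adjusted p = 0.105). UGT1A7-201 stood lower, at -1.61 (limma, adjusted p = 0.122). Neither passed after adjustment, where 1.36% of all transcripts so tested did. Without each library in turn the difference stayed between 1.54 and 1.97 for UGT1A6-201 and between -1.72 and -1.27 for UGT1A7-201.

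The locus also has alternative 3′ ends. Transcripts that end on a nearer last exon, such as UGT1A1-202 and UGT1A6-203, are known to encode shortened proteins without glucuronidation activity that can inhibit the full-length enzymes. Together these 2 transcripts had 1.60 and 2.16 FPKM in shDUSP23, against 5.43 and 8.52 FPKM in shMock. The 4 coding transcripts with the far last exon summed to 18.6 and 18.1 FPKM in shDUSP23, against 51.2 and 54.8 FPKM in shMock. Both kinds were lower, by 3.71 and 2.89 times in the group means. The nearer ending held 7.81% and 10.5% of the locus sum in shDUSP23 and 9.44% and 13.2% in shMock, so its share overlapped between the groups.

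The start regions of UGT1A7 and UGT1A9, the members with the largest log2 fold changes, are shown next to that of UGT1A6-201. Each window holds the 250 bases before and 50 after a RefSeq start on the plus strand of GRCh38.p14, and capitals mark the motif matches named below.
UGT1A9, chr2:233671648-233671947: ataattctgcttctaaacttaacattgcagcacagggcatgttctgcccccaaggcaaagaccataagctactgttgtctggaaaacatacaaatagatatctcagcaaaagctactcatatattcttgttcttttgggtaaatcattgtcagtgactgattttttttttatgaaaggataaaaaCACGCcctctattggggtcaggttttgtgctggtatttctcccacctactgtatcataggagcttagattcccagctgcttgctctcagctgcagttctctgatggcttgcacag
UGT1A7, chr2:233681651-233681950: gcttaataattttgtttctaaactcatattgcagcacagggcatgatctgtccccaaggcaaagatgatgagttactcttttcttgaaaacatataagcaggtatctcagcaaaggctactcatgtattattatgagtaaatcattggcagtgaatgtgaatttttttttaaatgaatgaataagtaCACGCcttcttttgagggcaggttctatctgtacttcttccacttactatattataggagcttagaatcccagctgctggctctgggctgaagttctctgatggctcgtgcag
UGT1A6, chr2:233692640-233692939: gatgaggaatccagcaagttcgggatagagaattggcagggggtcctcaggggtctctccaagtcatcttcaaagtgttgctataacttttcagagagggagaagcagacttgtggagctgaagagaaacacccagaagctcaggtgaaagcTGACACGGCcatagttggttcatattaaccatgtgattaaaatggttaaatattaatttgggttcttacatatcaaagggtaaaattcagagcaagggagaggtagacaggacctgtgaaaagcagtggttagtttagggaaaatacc

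The UGT1A7 and UGT1A9 windows were 78.6% identical, whereas each was 44.9% to 45.3% identical to this UGT1A6 window. Motifs were searched on both strands. The UGT1A7 and UGT1A9 windows each held 1 match to the xenobiotic response element core GCGTG, the motif of the aryl hydrocarbon receptor, which 36.5% of 35116 RefSeq promoter windows hold. The same core had 1 match in a second UGT1A6 window, at 233691452, 2 in that of UGT1A4, a gene not tested, and 0 in that of UGT1A1. The windows leave out more distant sequence, and whether the core relates to the fold changes was not tested. The UGT1A6 window held 1 match to the antioxidant response element core TGACNNNGC, the motif of NRF2, which 13.3% of all windows hold. The other windows of the locus held 0 matches to it. TATAAA had 0 matches in the windows of UGT1A9, UGT1A7, UGT1A6 and UGT1A4 and 1 in that of UGT1A1, against 11.5% of all windows with a match. The UGT1A1 match was on the minus strand, from base 159 of its window. A match is a run of letters and not a measured binding site.

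Some genes of the whole table had patterns over the 4 libraries close to those of the members. Likeness was the root mean square difference of log2(FPKM + 0.5) values, each centred on its own mean, among the 9876 genes averaging 5 FPKM or more. The nearest to UGT1A7 were the mitotic kinase gene PBK (0.0347), the peroxisomal oxidase gene ACOX2 (0.0434) and PCNA, the replication clamp (0.045), then MTUS1 (0.0675) and CDCA3 (0.0884). The nearest to UGT1A9 were the splicing factor gene TRA2B (0.0279), SNHG8 (0.0473), GALK1 (0.0561), IFTAP (0.0615) and CCT2 (0.064). UGT1A7 and UGT1A9 were 0.472 apart. The nearest to UGT1A6 were PAXX (0.0438), PLLP (0.0444), NDUFS7 (0.0501), EIF5A2 (0.0518) and SESTD1 (0.0552). Those to UGT1A1 were TM4SF18 (0.11), NDUFAF8 (0.125), DANCR (0.127), SELENBP1 (0.135) and AC073896.1 (0.137). Those to UGT1A4 were PRAG1 (0.0156), ACAD8 (0.0163), EIF3G (0.0309), PEX3 (0.0339) and PPP6C (0.0372). UGT1A4 had 0 FPKM in shDUSP23 replicate 1 and 0.145 to 0.206 FPKM elsewhere, so its pattern rests on few fragments. With 4 libraries in 2 groups such closeness mostly restates a similar fold change.

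Genes of sugar donor supply and glucuronide handling were called lower at about the rate of all genes, and 0 were called higher. Of 9 genes of UDP-glucuronic acid supply and glucuronide handling, all tested, 2 were called lower and 0 higher, beside 22.2% lower and 23.1% higher among all tested genes (median log2 fold change -0.29, against 0.03 for all). UGDH, the dehydrogenase that makes UDP-glucuronic acid, had 85.0 and 95.1 FPKM in shDUSP23, against 162 and 154 FPKM in shMock (log2 fold change -0.81, SE 0.12; limma, adjusted p = 0.000894). UGP2, which makes the precursor UDP-glucose, had 52.5 and 44.7 FPKM in shDUSP23, against 78.6 and 81.1 FPKM in shMock (log2 fold change -0.71; limma, adjusted p = 0.00237). Both groups stood apart for both genes. SLC35D1, a carrier of UDP-glucuronic acid into the endoplasmic reticulum, had 4.45 ± 0.399 FPKM in shDUSP23 and 5.52 ± 0.257 FPKM in shMock and did not pass. GUSB, the lysosomal enzyme that removes glucuronic acid, had 14.5 ± 1.24 and 17.9 ± 2.34 FPKM in the same order and did not pass.

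The genes that make bilirubin, the substrate of UGT1A1, did not pass. HMOX1, heme oxygenase 1, had 34.6 and 39.4 FPKM in shDUSP23, against 31.1 and 29.1 FPKM in shMock (limma, adjusted p = 0.103). The biliverdin reductase gene BLVRA had 59.3 ± 0.754 FPKM in shDUSP23 and 57.4 ± 9.14 FPKM in shMock, and BLVRB had 154 ± 7.48 and 155 ± 21.7 FPKM in the same order. Of the 9 tested genes of heme breakdown 2 were lower and 0 higher, with a median of -0.01 (2 and 3 with equal sums), and the lower count is no larger a share than the 22.2% of all genes. The 2 were iron genes, the ferritin light chain gene FTL and the iron exporter gene SLC40A1. FTL had 1388 ± 287 FPKM in shDUSP23 and 3395 ± 596 FPKM in shMock (log2 fold change -1.29; limma, adjusted p = 0.000966). SLC40A1 had 3.86 ± 0.375 FPKM in shDUSP23 and 12.97 ± 1.63 FPKM in shMock (log2 fold change -1.62; limma, adjusted p = 0.00036).

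Of 10 tested genes of export and uptake of conjugates 3 were lower and 3 higher, with a median of 0.10, near the 22.2% and 23.1% of all tested genes. The glucuronide exporter genes ABCC2 and ABCC3 were lower. ABCC2 had 108 ± 2.32 FPKM in shDUSP23 and 191 ± 14.6 FPKM in shMock, and ABCC3 had 117 ± 12.1 and 196 ± 22.1 FPKM in the same order. The organic anion uptake gene SLCO4A1 had 27.9 and 33.0 FPKM in shDUSP23, against 6.41 and 6.75 FPKM in shMock (log2 fold change 2.12; limma, adjusted p = 5.25e-05). SLCO2B1 was higher by 1.95 on the log2 scale (limma, adjusted p = 0.000293). ABCC4, called lower, and ABCC5, called higher, lost their calls without shDUSP23 replicate 2 and without either shMock library, with limma adjusted p between 0.0673 and 0.253. ABCC4 also lost its call with equal sums (limma, adjusted p = 0.378), and ABCC5 without a filter, a trend or after either rescaling by ratios or quantiles (limma, adjusted p = 0.0503 to 0.0744).

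**Figure D4:**
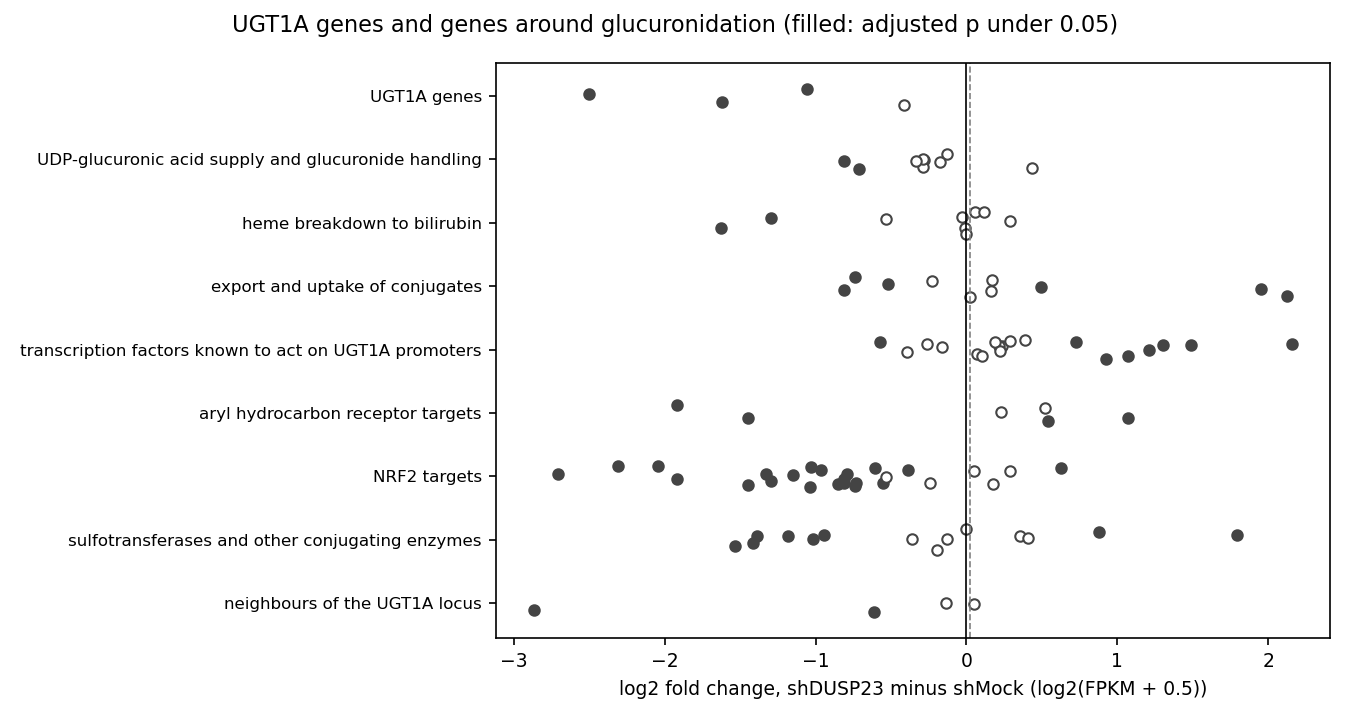
Log2 fold change (shDUSP23 minus shMock) of each tested UGT1A gene and of the tested genes of 8 related lists, 1 point per gene, filled where the adjusted p is under 0.05; the dashed line is the median of all tested genes, 0.03. The points of the NRF2 target list lie mostly left of 0, and the transcription factor list has 7 filled points right of 0.

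Of the regulators known to act on UGT1A promoters in liver or gut, more were called higher than lower. The list of regulators held transcription factor genes and KEAP1, which encodes an inhibitor of NRF2. Of 19 tested genes 7 were higher and 1 lower, with a median of 0.24, beside 23.1% higher and 22.2% lower among all tested genes. With equal sums these counts were 13 and 0, as the median of all tested genes moved to 0.34, and without shMock replicate 2 they were 4 and 0. AHR, the aryl hydrocarbon receptor, had 39.1 ± 1.10 FPKM in shDUSP23 and 33.7 ± 8.86 FPKM in shMock. NFE2L2, which encodes NRF2, had 55.4 ± 2.90 FPKM in shDUSP23 and 62.2 ± 8.83 FPKM in shMock, and neither of these genes passed. HNF4A, a liver-type factor, had 11.5 ± 2.37 FPKM in shDUSP23, against 9.22 ± 0.237 FPKM in shMock, and did not pass. Among those called higher were partners and competitors of NRF2 on its DNA motif. Whether their levels bear on the UGT1A genes was not tested. The small MAF gene MAFF had 53.1 and 47.9 FPKM in shDUSP23, against 12.2 and 9.74 FPKM in shMock (log2 fold change 2.16; limma, adjusted p = 4.84e-05). BACH1, a repressor at NRF2 sites, had 28.1 and 23.7 FPKM in shDUSP23, against 11.8 and 10.01 FPKM in shMock (log2 fold change 1.21; limma, adjusted p = 0.000639). MAFG and PPARA were higher by 1.30 and 1.49 on the log2 scale. FOXA2, the member called lower, had 5.75 and 5.74 FPKM in shDUSP23 and 8.72 and 8.84 FPKM in shMock. FOXA2 lost its call with equal sums (limma, adjusted p = 0.301) and without either shMock library (0.133 and 0.157).

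NRF2 and the aryl hydrocarbon receptor are known inducers of UGT1A genes. Of 26 tested NRF2 targets 20 were lower and 1 higher, beside 22.2% and 23.1% of all tested genes, with a median of -0.81 (17 and 4 with equal sums, and 0 higher without shMock replicate 2). NQO1, a quinone reductase, had 357 and 331 FPKM in shDUSP23, against 1251 and 1354 FPKM in shMock (log2 fold change -1.92; limma, adjusted p = 3.14e-05). The aldo-keto reductase genes AKR1C2, AKR1B10 and AKR1C3 fell by 2.70, 2.31 and 2.04 on the log2 scale. The AKR1C genes of the list resemble each other in sequence, so their separate values are uncertain. OSGIN1, a growth inhibitor gene, was the member called higher, by 0.62 on the log2 scale, and lost its call without shMock replicate 2 (limma, adjusted p = 0.0729). Of 6 tested aryl hydrocarbon receptor targets 2 were lower and 2 higher (2 and 4 with equal sums, and 1 higher without shMock replicate 2), beside 45.3% of all tested genes called in either direction. The lower ones, NQO1 and ALDH3A1, are also on the NRF2 list. UGDH, ABCC2, ABCC3 and FTL, called lower in the lists above, are on the NRF2 list too, so the lists are not independent. CYP1B1, a target of the receptor in many cell types, had 73.3 and 76.2 FPKM in shDUSP23, against 53.7 and 48.6 FPKM in shMock (log2 fold change 0.54; limma, adjusted p = 0.00632). The receptor's repressor AHRR had 3.16 and 1.82 FPKM in shDUSP23 and 0.989 and 0.795 FPKM in shMock, and lost its call after quantile normalization (limma, adjusted p = 0.0522) and without shDUSP23 replicate 1 or either shMock library (0.103 to 0.173).

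Other conjugating enzymes were lower or higher by gene. Of 14 tested genes of sulfation, methylation, acetylation, glutathione conjugation and epoxide hydrolysis 6 were lower and 2 higher (6 and 4 with equal sums). Their median was -0.28, and 22.2% and 23.1% of all tested genes were lower and higher. MGST1, a microsomal glutathione transferase, had 192 and 210.04 FPKM in shDUSP23, against 492 and 565 FPKM in shMock (log2 fold change -1.39; limma, adjusted p = 0.000115). The sulfotransferase gene SULT1C2 had 8.01 and 10.4 FPKM in shDUSP23, against 1.90 and 2.71 FPKM in shMock (log2 fold change 1.79; limma, adjusted p = 0.000689). SULT1A1, the other member called higher, had 4.39 and 5.69 FPKM in shDUSP23, against 1.78 and 3.44 FPKM in shMock. SULT1A1 has near-identical copies, so its value is uncertain, and it lost its call in 6 alternatives (limma, adjusted p = 0.0631 to 0.287), among them those without shDUSP23 replicate 2 and without shMock replicate 1. NNMT, GSTP1 and PAPSS2 fell by 1.41, 1.18 and 0.95 on the log2 scale. Of the chromosomal neighbours of the locus 4 were tested, and 2 were lower (1 with equal sums and without shMock replicate 2). HJURP, a histone chaperone of centromeres downstream of the locus, had 3.10 and 4.27 FPKM in shDUSP23, against 29.2 and 30.1 FPKM in shMock (log2 fold change -2.86; limma, adjusted p = 3.74e-05). DGKD had 18.2 and 17.2 FPKM in shDUSP23, against 24.3 and 30.8 FPKM in shMock, and lost its call with equal sums (limma, adjusted p = 0.16) and without shMock replicate 2 (0.126). USP40, which lies between DGKD and the UGT1A first exons, had 14.2 ± 0.683 FPKM in shDUSP23 and 15.6 ± 2.01 FPKM in shMock and did not pass.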

How the data were processed

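The deposited table held FPKM values computed by the authors, 1 per Ensembl transcript and library, per the file headers; it held no counts. Per the submitters' processing notes, STAR 2.7.1a, DESeq2 1.32.0 and GRCh38 were used. No source used here states the quantifier, annotation release or strandedness. Transcript values were summed per gene ID. Genes averaging 1 FPKM or more were fitted in limma 3.58.1 (R 4.3.3; a trended eBayes after lmFit) as log2(FPKM + 0.5), with Benjamini-Hochberg adjustment over the whole table; adjusted p under 0.05 was called. Transcripts were fitted likewise. Count models were not used. Fragment totals came from low values of genes with 1 transcript, of which 82.8% to 85.3% lay within 0.1 of a whole fragment, and are approximate. Exons and lengths came from GENCODE 29, which held 93.6% of listed transcripts, and promoters from RefSeq. Alignments used Biopython 1.88. Named were all UGT1A genes, DUSP23, up to 4 called genes per list and direction, by smallest p, and the 5 nearest genes by pattern; list members named with values that did not pass were chosen after their values were seen. The members and lists were chosen with earlier results of these data known. The list of other UGT genes had 19 names, of which UGT1A4 and UGT1A9, members here, had rows. Procedures were tested on simulated data.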

Additional observations from a re-analysis of the deposited data

How the results depend on the processing

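Besides the settings reported, pseudocounts of 0.1 and 1 FPKM, no filter or one at a mean of 5 FPKM, median-ratio, quantile and equal-sum scaling, eBayes without trend or robust, coding transcripts alone and correction for GC content and length (splines with 5 degrees of freedom) were run. Over 17 alternatives UGT1A7 stayed between -2.63 and -2.19 and UGT1A9 between -1.86 and -1.30 on the log2 scale, and each passed in 17 (limma, adjusted p up to 0.0023 and 0.00694). UGT1A6 stayed between -0.68 and -0.09 and passed in 0 of 17 (limma, adjusted p 0.0701 to 0.736). UGT1A1 passed in 13 of 16; with equal sums it was -0.77, and leaving out a library moved it between -1.45 and -0.65. It was too low for the 5 FPKM filter. Genes called numbered 6202, and 3464 to 6442 with a library left out (4038 without shMock replicate 1, 3464 without shMock replicate 2). The share of higher genes among those called was 51.0%, and 75.7% with equal sums. UGT1A transcripts called numbered 2; this was 1 without a filter, 1 with equal sums, and 0 without a trend, with the replicate block and with any library left out (0 to 0). In these settings with 0, limma called 0 transcripts in the whole table, and 2 to 4 UGT1A transcripts had an unadjusted p under 0.05. The replicate number as a block changed none of the 4 UGT1A gene calls: UGT1A7 -2.50 (limma adjusted p = 3.39e-06), UGT1A9 -1.62 (5.23e-05), UGT1A1 -1.05 (0.00911), UGT1A6 -0.41 (0.0766), with 6707 genes called in all. Libraries with the same number did not deviate together (r = 0.0528 across genes, which are not independent). Their column names share a tag across the groups, and the labels do not say whether it marks a shared source. DUSP23 and the list members named as called, 32 genes together, were followed singly under the alternatives and gave 0 reversals. Of their values 27 lost the call. The genes nearest by pattern were not followed. The isoform comparison with diffSplice was added after the data were seen, as were the last 3 alternatives for UGT1A9. Depth and the spread of 2 libraries per group limit UGT1A1 and UGT1A4, which were at a few FPKM or less.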
